A study of Homo sapiens with 6 samples.

Results

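The 9 genes described here encode the transcription factor NRF2 (NFE2L2), its inhibitor KEAP1 and the partners of both: CUL3 and RBX1 of the ubiquitin ligase, the small MAF proteins MAFG and MAFK, the competing factor BACH1, the related factor NRF1 (NFE2L1) and the KEAP1-binding receptor p62 (SQSTM1). They were taken by gene symbol from the deposited table of 60612 genes, in which each symbol had 1 row, and all 9 passed the filter on low counts. The cells were A549, an established human lung adenocarcinoma line of epithelial origin that is known to carry a mutated KEAP1. One group of 3 libraries came from cells transfected with an siRNA against GSE1 (siGSE1) and the other 3 from cells given a negative control siRNA, both collected 48 hours after transfection. Every library thus shares the KEAP1 mutation and the transfection, and no group without siRNA was analysed. The siRNA sequence was not given in the sources used here.

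NRF2 is a transcription factor of the cap'n'collar family that drives genes against oxidants and electrophiles. In unstressed cells KEAP1 holds NRF2 in the cytoplasm and presents it to CUL3, whose RING partner RBX1 recruits the ubiquitin-conjugating enzyme, so that NRF2 is degraded. When KEAP1 is modified by electrophiles, mutated as in A549, or bound by p62, NRF2 accumulates, pairs with a small MAF protein and binds the antioxidant response element. BACH1 pairs with the same small MAF proteins and represses from overlapping sites. Much of this control acts on the proteins, and only RNA was measured here.

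Short promoter sequences are shown first because the antioxidant response element is what NRF2, the small MAF proteins and BACH1 read. Its core was searched as TGACNNNGC on both strands, from 250 bases before to 50 bases after each start site in RefSeq (GRCh38.p14), where the start site counts as position 0. Of the 9 genes, 8 had such windows, 16 in all. MAFK had no entry. The letters occurred in 2 of these 16 windows (12.5%), close to the 13.3% of all 35116 windows. Counted by gene, 2 of the 8 held them (25%), against 16.1% of all 27305 genes with a window. Both KEAP1 matches lay in the window of a single start site at position 10502771 of chromosome 19, at -54 to -46 and -31 to -23, and the RBX1 match lay at -124 to -116. In the sequences below capitals mark the core, and each is written 5′ to 3′ on the strand where the core reads forward:
KEAP1, chr19:10502807-10502835, minus strand: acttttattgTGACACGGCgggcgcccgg
KEAP1, chr19:10502784-10502812, plus strand: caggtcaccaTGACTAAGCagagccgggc
RBX1, chr22:40951244-40951272, minus strand: gcggagcacgTGACCACGCctcttaaagg
GCLM, chr1:93909446-93909474, plus strand: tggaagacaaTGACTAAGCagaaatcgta
TXNRD1, chr12:104215670-104215698, plus strand: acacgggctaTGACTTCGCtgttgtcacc
GPX2, chr14:64942849-64942877, plus strand: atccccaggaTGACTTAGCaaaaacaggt

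GCLM, TXNRD1 and GPX2 are known NRF2 targets whose expression is given further on. They are shown as examples picked by hand. Other targets also held the core, and TXNRD1 had further matches that are not printed. The core in the plus-strand KEAP1 sequence has the same 9 letters as that of GCLM, TGACTAAGC, which occurred in 36 of the 35116 windows (0.103%). A match is a description of letters and not evidence of a bound site. The windows of NFE2L2, CUL3, MAFG, BACH1, NFE2L1 and SQSTM1 did not hold the core, which says nothing of sites farther away.

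The libraries held 14475992 to 20755506 counts. Control replicate 2 stood apart from its group, with a chi-square per degree of freedom of 10.1 and 8.97 against the other control libraries, where every other pair within a group had 2.49 to 4.60. GSE1, the targeted gene, fell from 7.78 ± 0.365 to 3.88 ± 0.168 FPKM (SD, n = 3 each), to 49.0% of its control level (edgeR adjusted p = 2.14e-08). FPKM is the deposited level per length, the count scaled to exonic length and library total. The keratin genes KRT8, KRT18 and KRT7 had 483 to 1053 FPKM in every library and CDH1 had 27.3 to 33.6, whereas the epithelial gene EPCAM was low (0.45 to 1.14 FPKM). Of the 7 epithelial markers tested, 4 fell (KRT8, KRT18, CLDN4 and ITGB4), with log2 fold changes of -0.72 to -0.25, and 0 rose. That is 57.1% fallen, where 9.02% of all genes tested fell and 10.9% rose. The median log2 fold change of these markers was -0.26. Of 8 markers each for leukocytes, fibroblasts and endothelium, 7, 7 and 7 had under 1 FPKM in both groups. The summed FPKM of those lists ran from 3.68 to 5.90, 1.42 to 2.49 and 0.81 to 1.09 in control cells and from 3.35 to 4.97, 2.49 to 2.78 and 1.44 to 2.28 in siGSE1 cells. PTPRC of the leukocyte list, COL1A2 of the fibroblast list and CDH5 of the endothelial list had at most 0.03 FPKM. The 4 fibroblast markers tested had log2 fold changes of 0.20 to 0.82, and 0 of them passed the test. In the endothelial list ESAM rose (mean 0.83 FPKM in control and 1.84 in siGSE1 cells). The part of these markers in the results was not tested.

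SQSTM1, NFE2L2, MAFG and KEAP1 were lower after GSE1 knockdown, at 71.7%, 75.7%, 80.2% and 86.6% of their control levels. Thus 4 of the 9 genes fell and 0 rose (44.4% changed), where 19.9% of the 15937 genes tested changed, 9.02% falling and 10.9% rising. The threshold was an adjusted p of at most 0.05 in edgeR's quasi-likelihood test over all genes. The siGSE1 and control FPKM did not overlap, with siGSE1 lower, for the same 4 genes, and for 14.9% of all genes tested. With counts taken per library size and TMM factor as in the test (log2 CPM), RBX1 and MAFK did not overlap either, which makes 6 of the 9, against 17.4% of all genes. The 5 that did not pass, BACH1, RBX1, MAFK, CUL3 and NFE2L1, also had log2 fold changes below 0, although that of NFE2L1 turned to 0.03 with TPM scaling, where libraries are set to an equal sum of counts per length. The median log2 fold change over the 9 was -0.21, against 0.00 over all genes. Because these are bulk RNA levels, fewer cells expressing a gene and less RNA per cell cannot be told apart.

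**Figure D1:**
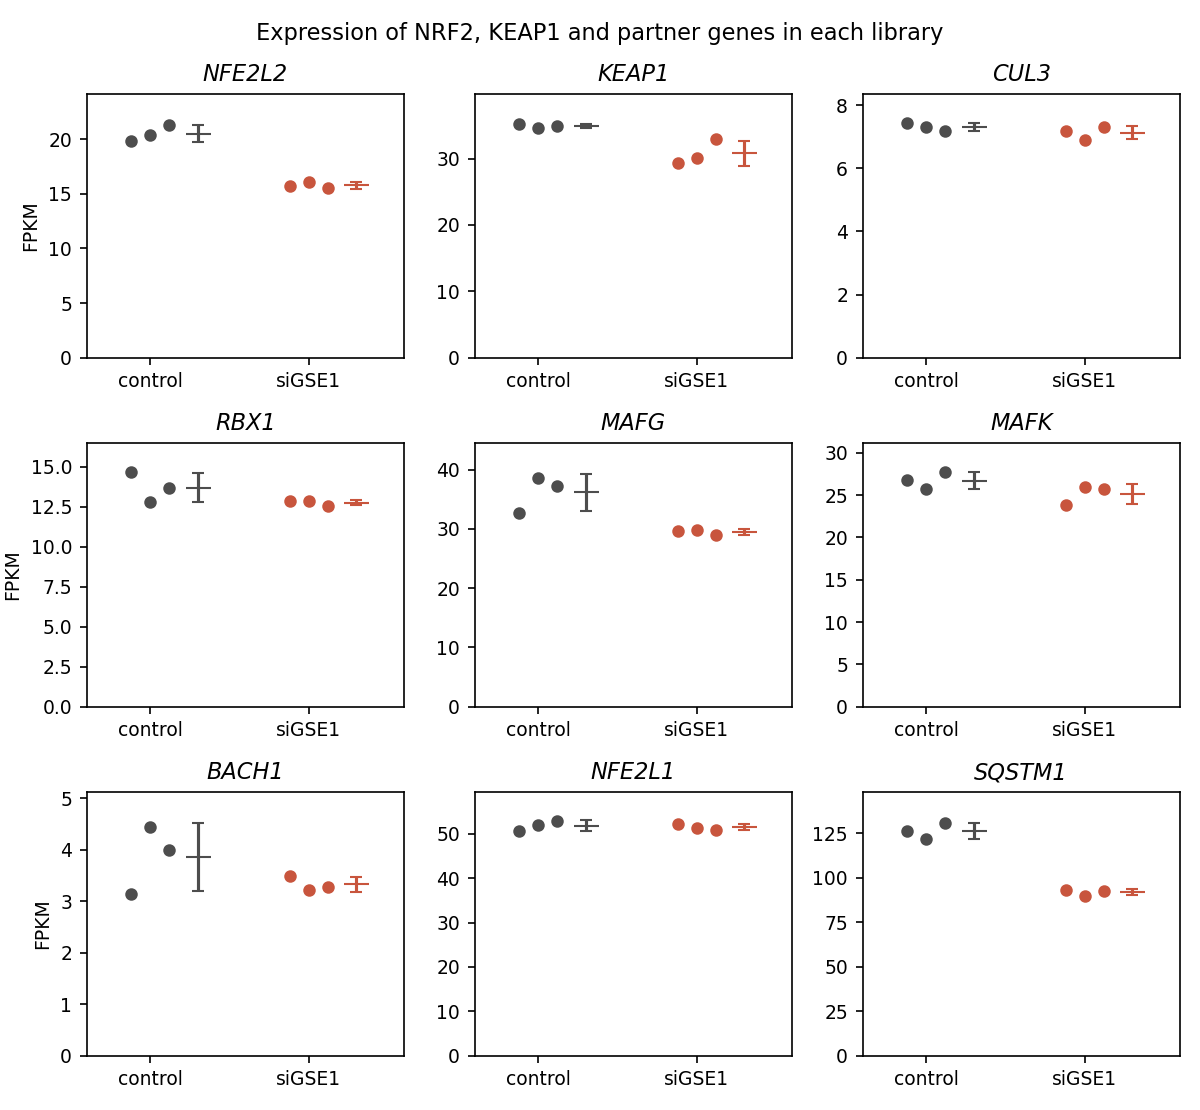
FPKM (vertical axes, starting at 0) of each of the 9 genes in the 3 control and 3 siGSE1 libraries, replicates 1 to 3 from left to right as points, with the mean and SD beside them. NFE2L2, KEAP1, MAFG and SQSTM1 show siGSE1 points below every control point, while NFE2L1 and CUL3 lie at the same height in both groups.

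NFE2L2 (ENSG00000116044, hg38 chromosome 2, 177227595 to 177392697, minus strand), which encodes NRF2, had 19.8, 20.4 and 21.3 FPKM in control replicates 1, 2 and 3 and 15.7, 16.1 and 15.5 in siGSE1 replicates 1, 2 and 3. The lowest control library lay above the highest siGSE1 library, and the libraries within each group lay close together. Its level fell to 75.7% of control (95% interval 70.0% to 81.8%), or -0.40 on the log2 scale (SE 0.05, adjusted p = 6.40e-05 by edgeR). Each value rests on 1559 to 2401 counts. The fall held in all 15 alternative settings, with log2 fold changes of -0.42 to -0.34. Of 10 annotated genes inside its span, the most abundant, AC019080.1, had 40 to 52 counts per library.

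NFE2L1 (ENSG00000082641, chromosome 17, 48048329 to 48061545, plus strand) encodes NRF1, a relative of NRF2 that is anchored in the endoplasmic reticulum and drives proteasome genes. It had 50.5, 51.9 and 53.0 FPKM in the control libraries and 52.3, 51.3 and 50.9 in the siGSE1 libraries. These values interleave, and siGSE1 stood at 97.7% of control with a 95% interval of 91.1% to 105% (log2 fold change -0.03, SE 0.05, adjusted p = 0.686). A fall as large as that of NFE2L2 lies outside this interval. The ratio of NFE2L1 to NFE2L2 FPKM within a library was 2.49 to 2.55 in control and 3.19 to 3.33 in siGSE1 cells, with no overlap. The ratios are given as values, and no test was run on them. An exact permutation test of 3 libraries against 3 could not go below p = 0.1.

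BACH1 (ENSG00000156273, chromosome 21, 29194071 to 29630751, plus strand), the repressor that competes with NRF2 for small MAF partners, was the least abundant of the 9. Its levels were 3.15, 4.44 and 3.99 FPKM in the control libraries and 3.50, 3.22 and 3.28 in the siGSE1 libraries. The groups overlapped, since control replicate 1 was the lowest of all 6 libraries and control replicate 2 the highest. siGSE1 stood at 85.0% of control (95% interval 72.9% to 99.0%), a log2 fold change of -0.24 (SE 0.10) that did not pass, at an adjusted p of 0.127. Without control replicate 1 the log2 fold change was -0.36 with an adjusted p of 0.0124. Without control replicate 2 it was -0.11 with an adjusted p of 0.449. Its counts, 443 to 706 per library, were the lowest of the 9.

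KEAP1 (ENSG00000079999, chromosome 19, 10486125 to 10503558, minus strand), the substrate adaptor that binds NRF2, had 35.2, 34.6 and 34.97 FPKM in the control libraries and 29.4, 30.1 and 32.9 in the siGSE1 libraries. The control values spread by a coefficient of variation of only 0.838%, against 6.06% in siGSE1 cells, where replicate 3 lay nearest to control. The level fell to 86.6% of control (95% interval 79.7% to 94.2%), or -0.21 on the log2 scale (SE 0.06, adjusted p = 0.0173). Unlike the other 3 falls, it lost its call in some alternatives. The adjusted p was 0.0503 without control replicate 1, 0.106 without siGSE1 replicate 1, 0.0957 without siGSE1 replicate 2 and 0.0786 with TPM scaling.

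The other ligase subunits did not pass the test. CUL3 (ENSG00000036257, chromosome 2, 224470150 to 224585397, minus strand), the scaffold cullin, had 7.44, 7.32 and 7.19 FPKM in control and 7.19, 6.90 and 7.29 in siGSE1 libraries. The groups overlapped, with siGSE1 at 95.7% of control (95% interval 88.2% to 104%, adjusted p = 0.482). RBX1 (ENSG00000100387, chromosome 22, 40951347 to 40973309, plus strand), the RING subunit, had 14.6, 12.8 and 13.7 FPKM in control libraries. In siGSE1 libraries it had 12.9, 12.8 and 12.6, overlapping only with control replicate 2. It stood at 91.4% of control (95% interval 82.3% to 102%, adjusted p = 0.229). The KEAP1 to CUL3 ratio of FPKM was 4.73 to 4.86 in control and 4.08 to 4.51 in siGSE1 cells, without overlap, whereas that of RBX1 to CUL3 overlapped (1.75 to 1.97 and 1.72 to 1.86).

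MAFG (ENSG00000197063, chromosome 17, 81918270 to 81927735, minus strand) encodes a small MAF protein, which lacks an activation domain and supplies the DNA-binding partner of NRF2 and BACH1. It had 32.7, 38.6 and 37.2 FPKM in the control libraries and 29.7, 29.8 and 28.9 in the siGSE1 libraries. All siGSE1 values lay below the lowest control, replicate 1. The level fell to 80.2% of control (95% interval 73.4% to 87.5%), or -0.32 on the log2 scale (SE 0.06, adjusted p = 0.00134), and the call held in all 15 alternatives. SIRT7 shares 3054 bases with MAFG on the same strand and had a log2 fold change of -0.23 (adjusted p = 0.0166), so how reads in the shared stretch were assigned could touch both values.

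MAFK (ENSG00000198517, chromosome 7, 1530702 to 1543043, plus strand), the other small MAF gene among the 9, had 26.7, 25.8 and 27.7 FPKM in control and 23.8, 26.0 and 25.7 in siGSE1 libraries. The groups overlapped in FPKM, with siGSE1 at 92.7% of control (95% interval 85.4% to 101%, adjusted p = 0.186). The ratio of MAFG to MAFK FPKM was 1.22 to 1.50 in control and 1.13 to 1.25 in siGSE1 cells. These ranges overlapped, so a difference between the small MAF genes was not shown. TMEM184A overlaps 809 bases of MAFK on the opposite strand, and its reads could not be separated if the counting ignored strand. Its log2 fold change was 0.03 (adjusted p = 0.766).

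SQSTM1 (ENSG00000161011, chromosome 5, 179806398 to 179838078, plus strand) encodes p62, an autophagy receptor that binds KEAP1 in competition with NRF2 and is itself an NRF2 target. It was the most abundant of the 9 and had the largest fall among them. Control libraries had 126, 122 and 131 FPKM and siGSE1 libraries 93.3, 90.0 and 92.9. All 3 siGSE1 values lay below the lowest control. The level fell to 71.7% of control (95% interval 66.8% to 76.9%), or -0.48 on the log2 scale (SE 0.05, adjusted p = 4.51e-06), on 12321 to 19545 counts per library. The range over the 15 alternatives was -0.51 to -0.42, with the call held in each. Of all genes tested, 6.45% had a lower fold change than SQSTM1 and 8.72% a lower one than NFE2L2. MGAT4B and MRNIP overlap its ends on the opposite strand, by 555 and 2946 bases, and neither passed the test (log2 fold changes 0.11 and -0.11, adjusted p = 0.182 and 0.345).

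**Figure D2:**
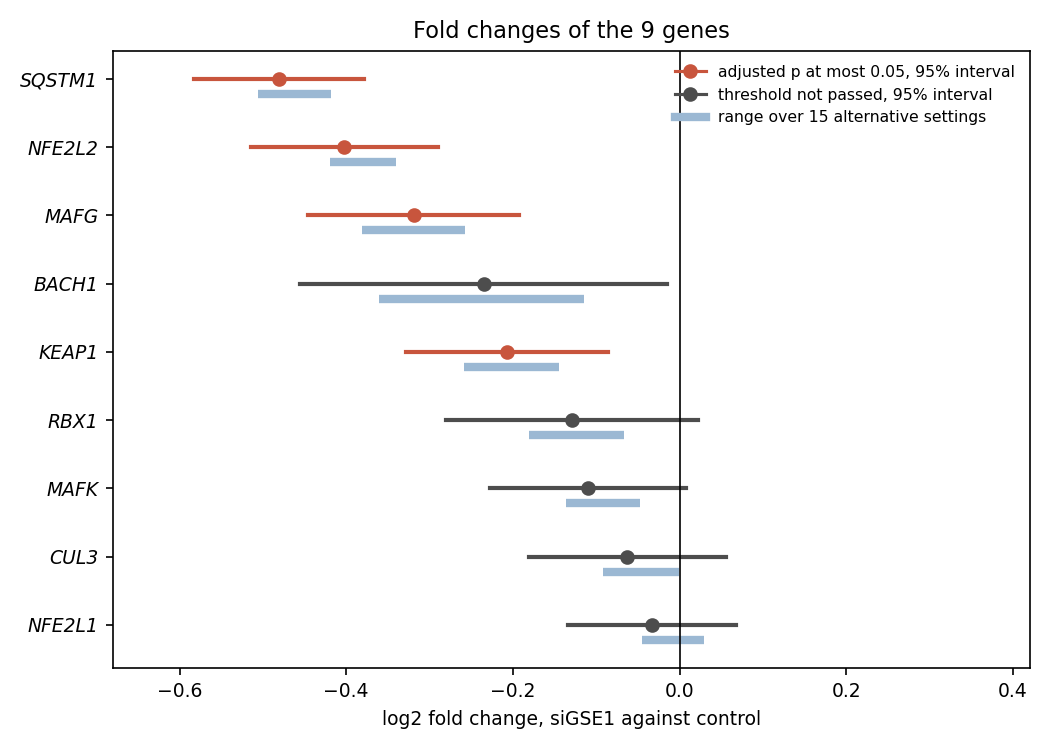
Log2 fold change of each gene in siGSE1 against control cells (horizontal axis) with its 95% interval, and as a blue bar the range over the 15 alternative settings. SQSTM1, NFE2L2, MAFG and KEAP1 passed the threshold, and the bar of BACH1 is the widest, from -0.36 to -0.11.

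In control cells the order of FPKM was SQSTM1 (126 ± 4.36), NFE2L1 (51.8 ± 1.22), MAFG (36.2 ± 3.12), KEAP1 (34.9 ± 0.293), MAFK (26.7 ± 0.955), NFE2L2 (20.5 ± 0.754), RBX1 (13.7 ± 0.930), CUL3 (7.32 ± 0.125) and BACH1 (3.86 ± 0.655), each as mean ± SD of 3 libraries. MAFG and KEAP1 overlapped, and no other neighbours did. In siGSE1 cells KEAP1 (30.8 ± 1.87) and MAFG (29.5 ± 0.474) had exchanged places and again overlapped, and the rest of the order was unaltered. Set against the 15937 genes tested, control SQSTM1 lay above 98.4%, KEAP1 above 92.9%, NFE2L2 above 87.0% and BACH1 above 50.6%.

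Ratios of FPKM within a library compare the regulators without the library total. NFE2L2 to KEAP1, the factor to its inhibitor, was 0.562, 0.589 and 0.609 in control replicates and 0.534, 0.535 and 0.472 in siGSE1 replicates. The siGSE1 ratios were all lower than the lowest control ratio. SQSTM1 to KEAP1 was 3.52 to 3.74 in control and 2.82 to 3.18 in siGSE1 cells, also without overlap. The ratios of SQSTM1 to NFE2L2 (5.98 to 6.39 and 5.59 to 5.99) and of NFE2L2 to BACH1 (4.59 to 6.28 and 4.48 to 5.00) overlapped between groups. All pairs were picked by hand, and ratios of other gene pairs were not computed. How common ratios without overlap are among gene pairs is therefore not known. For single genes, FPKM did not overlap, with siGSE1 lower, in 14.9% of all genes tested.

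**Figure D3:**
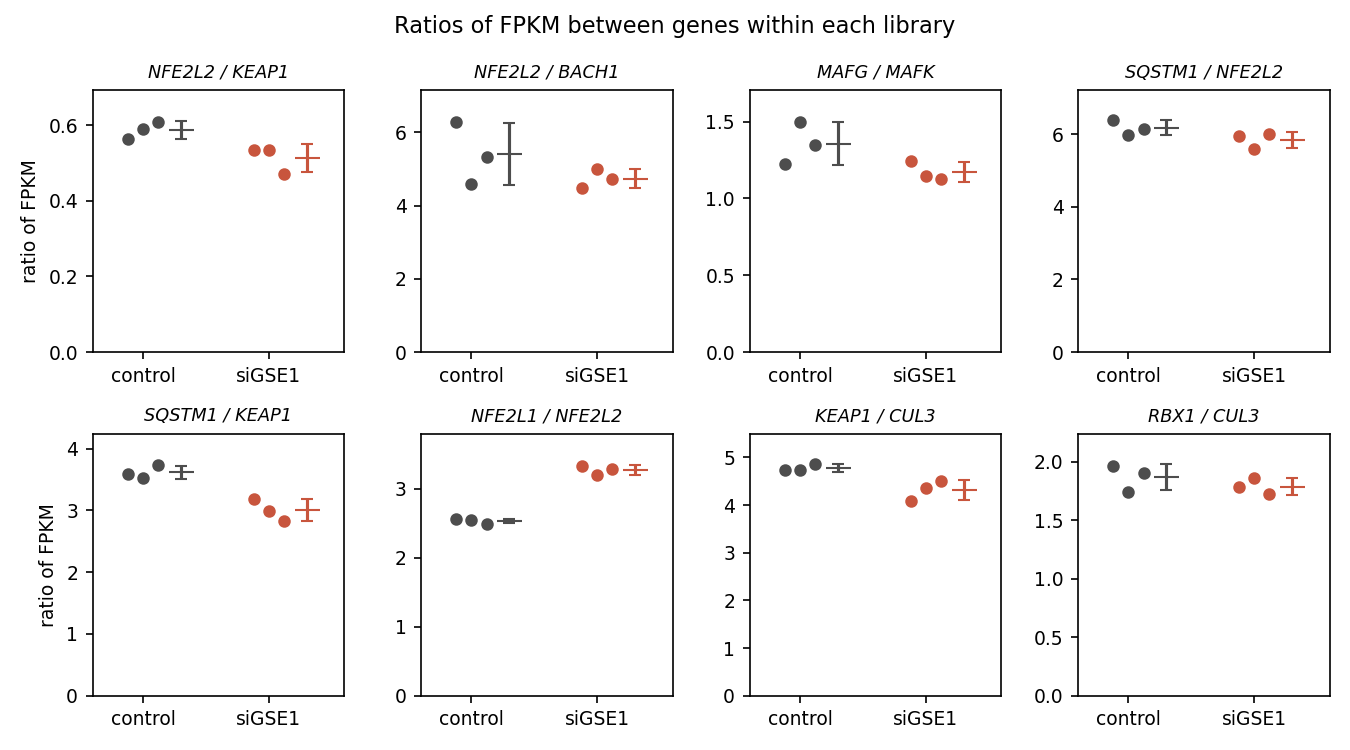
Ratio of FPKM between pairs of genes (vertical axes, starting at 0) in each library, as points with mean and SD, for 3 control and 3 siGSE1 libraries. The NFE2L1 to NFE2L2 ratio rises from at most 2.55 to at least 3.19, and NFE2L2 to KEAP1, SQSTM1 to KEAP1 and KEAP1 to CUL3 are lower in siGSE1 cells without overlap. The pairs were picked by hand, and the share of other gene pairs without overlap was not computed.

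The genes most like NFE2L2 over the 6 libraries were sought among 6818 other named genes with at least 5 FPKM on average, by the root mean square difference of log2 CPM after centring each gene on its mean. Among the closest were ADSS2, an enzyme of adenine nucleotide synthesis (difference 0.02), and ITGB4, the integrin chain of hemidesmosomes (0.02). Their log2 fold changes were -0.40 and -0.44. For SQSTM1, which had the smallest adjusted p of the 9, they were the ubiquitin ligase gene RMND5A (0.02), the mitochondrial transfer RNA gene MT-TP (0.03) and the membrane protein gene TMEM14B (0.04), with log2 fold changes of -0.49, -0.50 and -0.50. The 6 libraries share their depth and scaling factors across genes, so these distances only describe this set.

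Known NRF2 targets, the output of the pathway, were mostly lower in siGSE1 cells. Of 34 listed targets, all tested, 26 fell, 1 rose and 7 did not pass, where 9.02% of all genes fell and 10.9% rose. The median log2 fold change was -0.33, against 0.00 over all genes. Without control replicate 2, 25 fell and 2 rose, and with TPM scaling 22 fell and 2 rose. Across the 34 targets, the median log2 CPM after subtracting each gene's mean in control cells lay between -0.06 and 0.08 in control libraries. After siGSE1 it lay between -0.35 and -0.31. Control medians lie near 0 because of that subtraction. Over all genes tested the medians were 0.001 to 0.002 in control and 0.008 to 0.011 in siGSE1 libraries. Those ranges lay apart too, so the size of the shift and not the separation describes the targets.

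ABCC1, an export pump for glutathione conjugates, had 90.9, 103 and 96.0 FPKM in control and 62.1, 60.5 and 58.9 in siGSE1 libraries (log2 fold change -0.70, SE 0.05, adjusted p = 3.37e-07). TXNRD1, which regenerates reduced thioredoxin, had 228, 251 and 230 against 156, 153 and 147 FPKM (-0.66, SE 0.05, adjusted p = 4.38e-07). ALDH3A1, an aldehyde dehydrogenase, had 434, 504 and 426 against 278, 266 and 260 FPKM (-0.79, SE 0.06, adjusted p = 4.41e-07). In these genes, and in the sulfiredoxin gene SRXN1 (27.9, 29.5 and 29.1 against 18.2, 17.5 and 19.8 FPKM, log2 fold change -0.67), no siGSE1 library reached the lowest control. These genes were named for the smallest adjusted p-values of the list, so such separation adds nothing to their calls. Over the 34 targets, FPKM did not overlap, with siGSE1 lower, for 26, against 14.9% of all genes tested.

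Not all targets passed the test. NQO1, a quinone reductase often used as a readout of NRF2, had 441, 527 and 442 FPKM in control and 475, 476 and 464 in siGSE1 libraries, overlapping values with a log2 fold change of -0.02 (95% interval -0.15 to 0.11, adjusted p = 0.865). ME1, a cytosolic source of NADPH, had a log2 fold change of 0.30 (adjusted p = 0.0180) and was the gene that rose, but 0 of the targets rose when any library other than control replicate 2 was left out. NQO1 and ME1 were named after their values were seen. The AKR1C and AKR1B genes on the list are close paralogs whose reads counting may split, so their single values are uncertain. Of the 24 targets with a RefSeq promoter window, 10 (41.7%) held the core shown above, against 16.1% of all genes with a window. Of these 10, 7 fell and 1 rose, with a median log2 fold change of -0.41, and of the 14 without it 12 fell and 0 rose, with a median of -0.25 and the lowest value of both sets, -0.86. The medians and the counts thus ran in opposite directions. GCLM (-0.24), TXNRD1 and GPX2 (-0.60), whose sequences stand beside that of KEAP1, are among the 10.

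**Figure D4:**
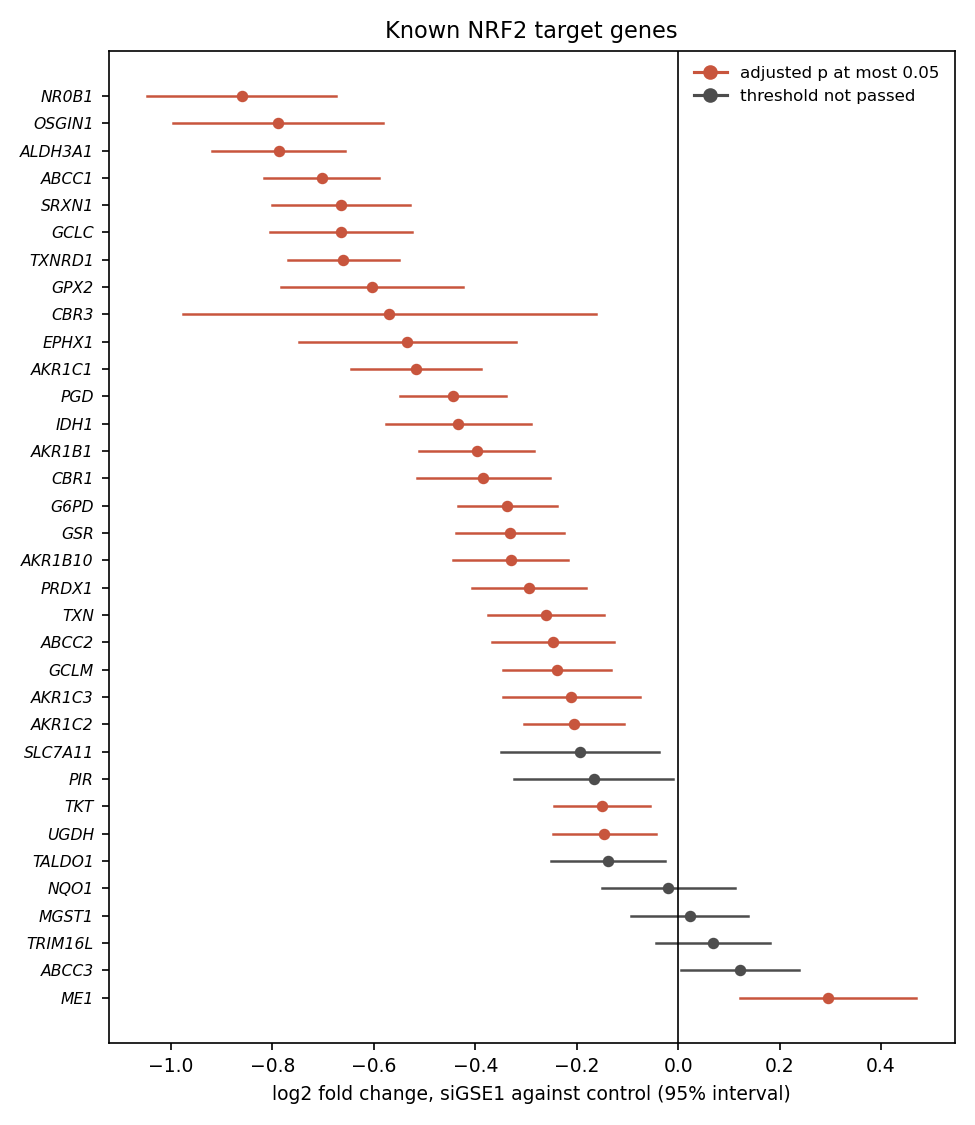
Log2 fold change in siGSE1 against control cells (horizontal axis) with its 95% interval for the 34 listed NRF2 targets, in order of size. Red marks the 27 past the threshold, 26 of them below 0, and NQO1 sits at -0.02.

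In the other lists, which hold genes that act on these regulators or follow from them, median log2 fold changes lay between -0.19 and 0.01. Their counts stand against 9.02% of all genes tested that fell and 10.9% that rose, 19.9% in all. Of 13 genes of the neddylation cycle that switches CUL3 on and off, 0 rose, 1 fell and 12 did not pass (7.69% changed). The one that fell was UBE2M, the NEDD8-conjugating enzyme, with 64.3, 66.6 and 72.0 FPKM in control and 51.6, 55.1 and 59.9 in siGSE1 libraries (log2 fold change -0.31, SE 0.06, adjusted p = 0.00272). Among 10 genes of KEAP1-independent NRF2 degradation, 1 rose, 2 fell and 7 did not pass (10% rose and 20% fell). FBXW11, a beta-TrCP adaptor that recognises phosphorylated NRF2, fell (-0.43, adjusted p = 3.91e-05), DCAF11, a CUL4 adaptor, fell (-0.24, adjusted p = 0.0130) and the kinase gene GSK3B rose (0.24, adjusted p = 0.00461). The call of DCAF11 was lost without siGSE1 replicate 2 or 3, with TPM scaling and by limma on log2(FPKM + 1) (adjusted p = 0.0551) and on log2(FPKM + 0.1) (0.0531).

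Of 12 other KEAP1-binding or NRF2-stabilising proteins, 1 rose, 1 fell and 10 did not pass (16.7% changed, near the share of all genes). CDKN1A, whose product p21 competes with KEAP1 for NRF2, fell (86.0 ± 8.60 FPKM in control and 57.3 ± 1.82 in siGSE1 cells, SD, n = 3 each, -0.61 on the log2 scale, adjusted p = 1.19e-05). PPP1R13L, which encodes the KEAP1-binding protein iASPP, rose (0.32, adjusted p = 0.0490) but lost its call without any of 5 of the 6 libraries, control replicate 1 being the exception. Of 10 cofactors, 2 rose, 1 fell and 7 did not pass (20% rose and 10% fell). The acetyltransferase gene EP300, a coactivator of NRF2, fell (-0.38, adjusted p = 2.83e-04), and the retinoic acid receptor gene RARA rose (0.25, adjusted p = 0.0485), a call also lost without any of 5 libraries, all but control replicate 1.

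Among 8 relatives of the CNC and MAF families, 6 were tested, and 1 rose, 1 fell and 4 did not pass (33.3% changed). NFE2L3, which encodes NRF3, had 5.28, 3.77 and 4.98 FPKM in control and 3.78, 3.40 and 3.29 in siGSE1 libraries (-0.44, adjusted p = 0.0169), overlapping through control replicate 2. Its call was lost without control replicate 1 or siGSE1 replicate 2 or 3. It was also lost by limma on log2(FPKM + 1) (adjusted p = 0.0862) and on log2(FPKM + 0.1) (0.0817). MAF rose on 5 to 9 and 16 to 25 counts per library (log2 fold change 1.59, adjusted p = 0.0240). The call of MAF was lost without control replicate 1 or 2 or siGSE1 replicate 1 or 3, and by limma with both pseudocounts (adjusted p = 0.0889 and 0.0526).

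Upstream of NRF1, which must be extracted from the endoplasmic reticulum, deglycosylated and cleaved, 2 of 10 processing genes rose, 1 fell and 7 did not pass (20% rose and 10% fell). DDI2, the protease that cleaves NRF1, had 2.45, 2.45 and 2.46 FPKM in control and 3.35, 3.35 and 3.04 in siGSE1 libraries (0.38, adjusted p = 0.00139). VCP, the extraction ATPase, fell from 153 ± 4.78 to 134 ± 1.57 FPKM (SD, n = 3 each, -0.22, adjusted p = 0.00453). Of 32 proteasome genes, the classic targets of NRF1, 0 rose, 8 fell (25%, against 9.02% of all genes) and 24 did not pass, with a median log2 fold change of -0.12. PSMC4 (-0.26), PSMA3 (-0.21), PSMA6 (-0.20) and PSMD12 (-0.19) had the smallest adjusted p-values, from 0.00288 to 0.0197. That count was not stable, at 1 with TPM scaling, without control replicate 1 or without siGSE1 replicate 3. It was 2 without siGSE1 replicate 1 and 3 without siGSE1 replicate 2, but 9 without control replicate 2 and 10 without control replicate 3. The calls of PSMA3, PSMA6 and PSMD12 were among those lost in the fits with fewer.

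Beside p62, 2 of 17 autophagy genes rose, 1 fell and 14 did not pass. At 17.6% changed and 11.8% risen, the list was near the 19.9% and 10.9% of all genes. ULK1, the initiating kinase, rose from 15.3 ± 3.05 to 23.2 ± 0.351 FPKM (SD, n = 3 each, 0.58, adjusted p = 3.84e-04), and MAP1LC3B, which p62 binds on the autophagosome, rose (0.31, adjusted p = 0.00299). WDFY3, a scaffold for clearing p62 bodies, fell (-0.33, adjusted p = 0.00149). Of 8 heme and iron genes that BACH1 represses, 1 rose, 2 fell and 5 did not pass (12.5% rose and 25% fell). FTL, the ferritin light chain, had 8523, 8994 and 8725 FPKM in control and 7810, 7597 and 7720 in siGSE1 libraries (-0.21, adjusted p = 0.00334, and 0.170 by limma on log2(FPKM + 1)). Heme oxygenase HMOX1 fell (-0.26, adjusted p = 0.0242) and ferrochelatase FECH rose (0.21, adjusted p = 0.0365), but each lost its call without any of 5 of the 6 libraries, all but control replicate 2.

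**Figure D5:**
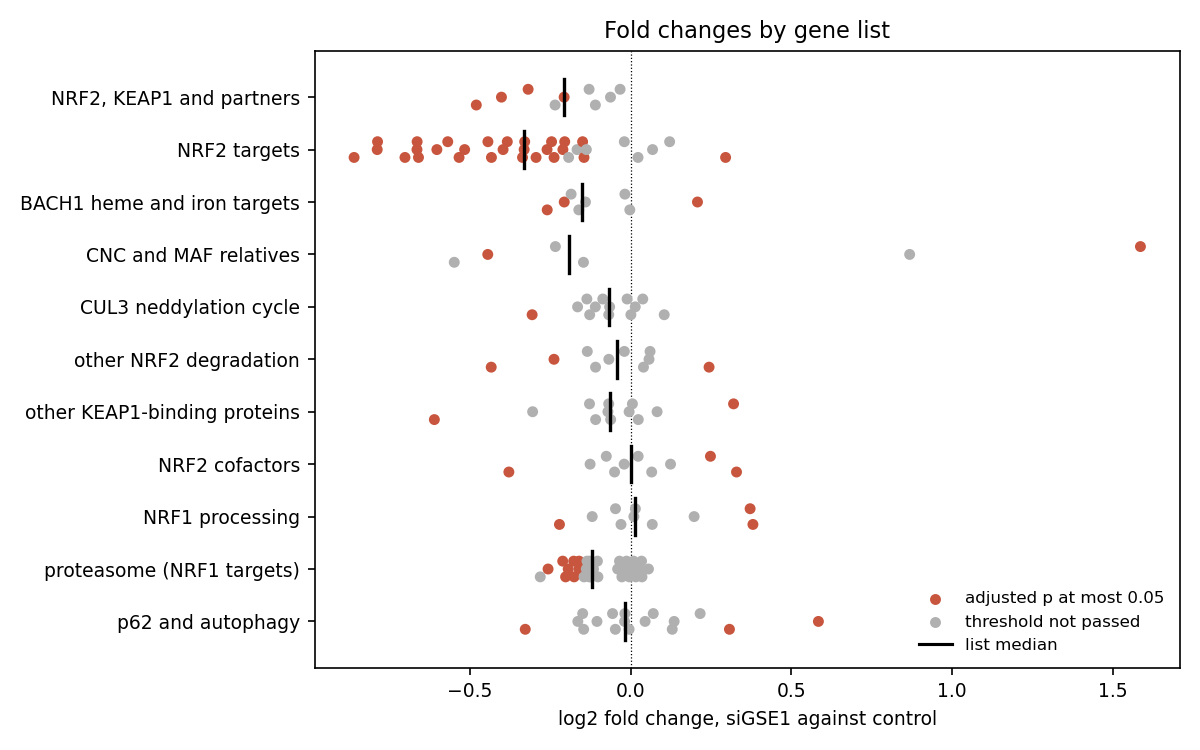
Log2 fold change in siGSE1 against control cells (horizontal axis) of each tested gene, by list, with red points past the threshold and black bars at the list medians. The NRF2 targets (median -0.33) and the 9 regulators (median -0.21) have the lowest medians of the lists plotted, and MAF, on 5 to 25 counts, is the point at the far right. The marker lists are not plotted, and the epithelial list had a median of -0.26.

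The labels number replicates 1 to 3 in each group without saying whether they were separate cultures, so the p-values reflect the spread among these libraries alone, and that spread may be technical. Over all genes 3167 changed, 54.6% of them higher, and 73.3% higher with TPM scaling, which moved the median log2 fold change of all genes up by 0.06. The overall count was 2055 without siGSE1 replicate 2 and 1863 without siGSE1 replicate 3.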

How the data were processed

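Per the labels' protocols, total RNA of A549 cells (500 ng per library) was made into TruSeq RNA libraries. The authors deposited a table of whole-number read counts per gene, which carry no normalization, and FPKM, which equal the count divided by exonic length and library total (tolerance 0.0051) in 100% of values. Per the submitters' processing notes, HISAT2, StringTie 1.3.3b, HTSeq and edgeR were among the tools, with hg38, whereas the series text names STAR and DESeq2. Neither the annotation release nor any use of strand was given in the sources used here.

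Counts were tested with edgeR 4.0.16 (R 4.3.3): filterByExpr (minimum count 10, minimum total 15), TMM factors (0.980 to 1.01), a quasi-likelihood model with group alone, and Benjamini-Hochberg adjustment over 15937 genes (threshold 0.05). SE is the absolute log2 fold change over the square root of F. The biological coefficient of variation was 7.00%, and log2 CPM used a prior count of 2. The code was tested on simulated counts. Alternatives included DESeq2 1.42.0 and limma 3.58.1 on log2(FPKM + 1) and log2(FPKM + 0.1).

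The 9 genes and all lists were chosen with earlier results of these data known. By rule, the text names all 9, up to 4 passing genes per list with the smallest adjusted p, and 3 genes most like NFE2L2 and the regulator with the smallest adjusted p. GCLM, GPX2, NQO1, ME1, SIRT7, the marker genes and the overlapping genes were named besides. A few genes that the rule names are not reported here.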

Additional observations from a re-analysis of the deposited data

How the results depend on the processing

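Over 15 alternatives NFE2L2, MAFG and SQSTM1 kept their calls, with adjusted p of at most 0.00240, 0.0218 and 7.75e-04. The number of the 9 regulators that changed was 3 or 4 in each, and that of the NRF2 targets 22 to 27. The 4 were not always the same genes. Without control replicate 1, KEAP1 lost its call (edgeR adjusted p = 0.0503) and BACH1 gained one (0.0124). Genes changed overall numbered 1863 to 3562 when a library was left out, against 3167. Genes lower numbered 814 to 1648 then, and 929 with TPM scaling, 887 by limma on log2(FPKM + 1) and 909 on log2(FPKM + 0.1), against 1437. Genes higher numbered 1049 without siGSE1 replicate 3, against 1730. The proteasome count of 8 was also 5 with no normalization factors, 5 with no low-count filter and 4 by limma. Deviations of same-numbered libraries correlated at 0.02, -0.02 and 0.00, so no pairing was seen. With so few libraries this cannot exclude that same-numbered samples shared a culture or batch. With the replicate block, 3097 genes, 4 of the 9 regulators and 26 targets changed, and RARA alone among the genes named by rule lost its call (adjusted p = 0.0581). Small log2 values turned sign. With TPM scaling NFE2L1 was 0.0289, and the median of KEAP1-independent degradation was 0.0187. The cofactor median was -0.00490 with DESeq2's size factors, -0.00494 with DESeq2, and -0.00777 to 0.0115 when a library was left out, below 0 in 4 of those 6 fits. The NRF1 processing median was -0.000155 to 0.0365 when a library was left out. The autophagy median was 0.00673 with no normalization factors, 0.0442 with TPM scaling, 0.00828 and 0.00903 by limma with pseudocounts of 1 and 0.1, and -0.0475 to 0.0240 when a library was left out. The cause was not tested. BACH1 had the fewest counts of the 9 (443 to 706 per library), with a coefficient of variation of 17.0% in control libraries.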
